A study of Rattus norvegicus with 4 samples.

Results

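The cathepsins Ctsb, Ctsc, Ctsd, Ctsh, Ctsk, Ctsl and Ctss and the cathepsin inhibitor Cst3, or cystatin C, were compared between a pair of rat prostate tumour lines. The members were all probe sets that the platform annotation gives to these 8 symbols, which makes 12 of the 8799 probe sets on the array, with 2 probe sets each for Ctsc, Ctsd, Ctsl and Cst3 and 1 for each other gene. The genes were chosen by their signal differences between the lines on these same arrays. Their own differences are therefore given as a description, with no test. Test results are given only for genes outside this group, and the lists of them were also chosen with earlier results of these data known. The members were fitted along with all other probe sets, and a member called tested below is one that passed the filter on low signals.

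Both lines, G and MAT-LyLu (spelled Mat-Lylu in the titles), are sublines of the Dunning R3327 rat prostatic tumour. In the sample descriptions the G cells are non-metastatic, and those of MAT-LyLu are called highly metastatic. Neither line carried a treatment or engineered allele in the labels, each group is 1 line read on 2 arrays (replicates 0 and 1), and G was the control. The duplicates are not stated to come from separate cultures, so the errors and p-values below measure the spread between arrays, which may be technical.

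Cathepsins are proteases of the lysosome, made as inactive precursors, carried there from the Golgi and activated by removal of a propeptide at acid pH. Ctsb, Ctsc, Ctsh, Ctsk, Ctsl and Ctss belong to the papain-like cysteine proteases, and Ctsd is an aspartic protease. Cystatin C is a secreted inhibitor that blocks the papain-like enzymes outside the cell. In tumours, cathepsins released from cells are known for cleaving matrix proteins such as collagen and elastin.

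MAT-LyLu had lower signals than G for Ctsh, Cst3, Ctss and Ctsb, and a higher signal for Ctsl on 1 of its 2 probe sets. Ctsh was at least 4.88-fold lower, Cst3 was 6.96-fold lower on one probe set and 2.19-fold lower on the other, Ctss was 2.32-fold lower and Ctsb 1.58-fold lower. Ctsl was 2.20-fold higher on its brighter probe set and 1.15-fold higher on the other. Ctsd and Ctsc differed little, at 1.05-fold to 1.25-fold lower on their measured probe sets, and Ctsk lay below the background of every array.

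Promoter windows were matched in RefSeq (GRCr8) for 7 of the 8 genes. Each window runs from 250 bases before the annotated start of the gene to 50 bases after it. Those of 5 genes are shown because their signals went apart: Ctsh (chr8:99488506-99488805, plus strand), Cst3 (chr3:156793888-156794187, minus strand) and Ctss (chr2:185775146-185775445, plus strand) were lower in MAT-LyLu, Ctsl (chr17:769854-770153, plus strand) was higher on 1 probe set, and Ctsd (chr1:206968772-206969071, minus strand) differed little. Capitals mark matches, on either strand, to the E-box CACGTG, its extension TCACGTGA, the interferon-type motif GAAANNGAA, the AP-1 motif TGANTCA and the GC box GGGCGG, and 2 neighbouring GC boxes in Ctsl form 1 run of capitals.
Ctsh: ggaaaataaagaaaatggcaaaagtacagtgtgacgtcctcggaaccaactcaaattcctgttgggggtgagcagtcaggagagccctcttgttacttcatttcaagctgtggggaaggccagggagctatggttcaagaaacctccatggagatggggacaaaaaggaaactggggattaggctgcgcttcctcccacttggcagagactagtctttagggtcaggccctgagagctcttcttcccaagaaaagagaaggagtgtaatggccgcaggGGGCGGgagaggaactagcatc
Cst3: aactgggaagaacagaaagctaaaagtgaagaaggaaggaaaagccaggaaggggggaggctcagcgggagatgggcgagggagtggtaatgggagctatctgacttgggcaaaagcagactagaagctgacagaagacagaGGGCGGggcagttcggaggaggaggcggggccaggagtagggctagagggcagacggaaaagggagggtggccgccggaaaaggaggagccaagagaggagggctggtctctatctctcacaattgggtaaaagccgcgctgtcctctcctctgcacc
Ctss: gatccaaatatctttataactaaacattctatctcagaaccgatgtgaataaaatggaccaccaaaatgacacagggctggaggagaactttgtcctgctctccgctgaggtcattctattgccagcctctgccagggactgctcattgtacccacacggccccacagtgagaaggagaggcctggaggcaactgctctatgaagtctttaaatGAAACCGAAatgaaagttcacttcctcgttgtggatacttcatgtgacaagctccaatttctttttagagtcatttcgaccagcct
Ctsl: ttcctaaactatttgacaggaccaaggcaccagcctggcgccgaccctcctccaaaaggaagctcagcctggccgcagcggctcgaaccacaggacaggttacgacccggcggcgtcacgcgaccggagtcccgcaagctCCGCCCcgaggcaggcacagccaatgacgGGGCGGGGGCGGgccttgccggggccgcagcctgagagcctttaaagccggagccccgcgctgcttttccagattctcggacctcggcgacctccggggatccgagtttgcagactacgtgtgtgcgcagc
Ctsd: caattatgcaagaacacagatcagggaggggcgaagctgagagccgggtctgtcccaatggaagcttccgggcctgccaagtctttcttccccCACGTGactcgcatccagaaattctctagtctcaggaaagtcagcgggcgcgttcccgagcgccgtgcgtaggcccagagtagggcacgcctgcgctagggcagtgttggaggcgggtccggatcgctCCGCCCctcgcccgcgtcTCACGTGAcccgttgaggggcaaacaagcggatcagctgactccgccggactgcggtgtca

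Ctss, a gene known to be inducible by interferon, held a match to the interferon-type motif from -36 to -28 relative to the gene's start, and Ctsk held one from -182 to -174. That motif occurred in 9.71% of the 33469 windows of this length. Ctsd held the only E-boxes among the 7 windows, from -157 to -152 and from -10 to -5, against 6.42% of all windows with at least 1. The second of these lies inside a match to TCACGTGA, the core letters of the CLEAR element known from lysosomal genes, which 0.777% of all windows held. A GC box stood in 5 of the 7 windows (Ctsc, Ctsd, Ctsh, Ctsl and Cst3) and in 33.1% of all windows. The AP-1 motif stood in none of the 7 and in 7.33% of all. Base composition differed along with these counts, from 45.3% G and C in Ctss and 48.3% in Ctsk to 66.7% in Ctsl. The motifs were chosen after the windows had been read, a match is a string of letters, and no binding was measured.

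Signals are the authors' linear values from MAS5, an Affymetrix method that merges the probes of a probe set, and are comparable between arrays of the same probe set but not between probe sets. The array medians lay between 2998 and 3156. To set a background level, the 95th percentile was taken over 23 control probe sets without a rat target (bacterial, yeast or mouse) on each array, which gave 1891 to 2311. Of the 12 member probe sets, 9 were above that level on all 4 arrays. The number of arrays limits the precision of every value.

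**Figure D1:**
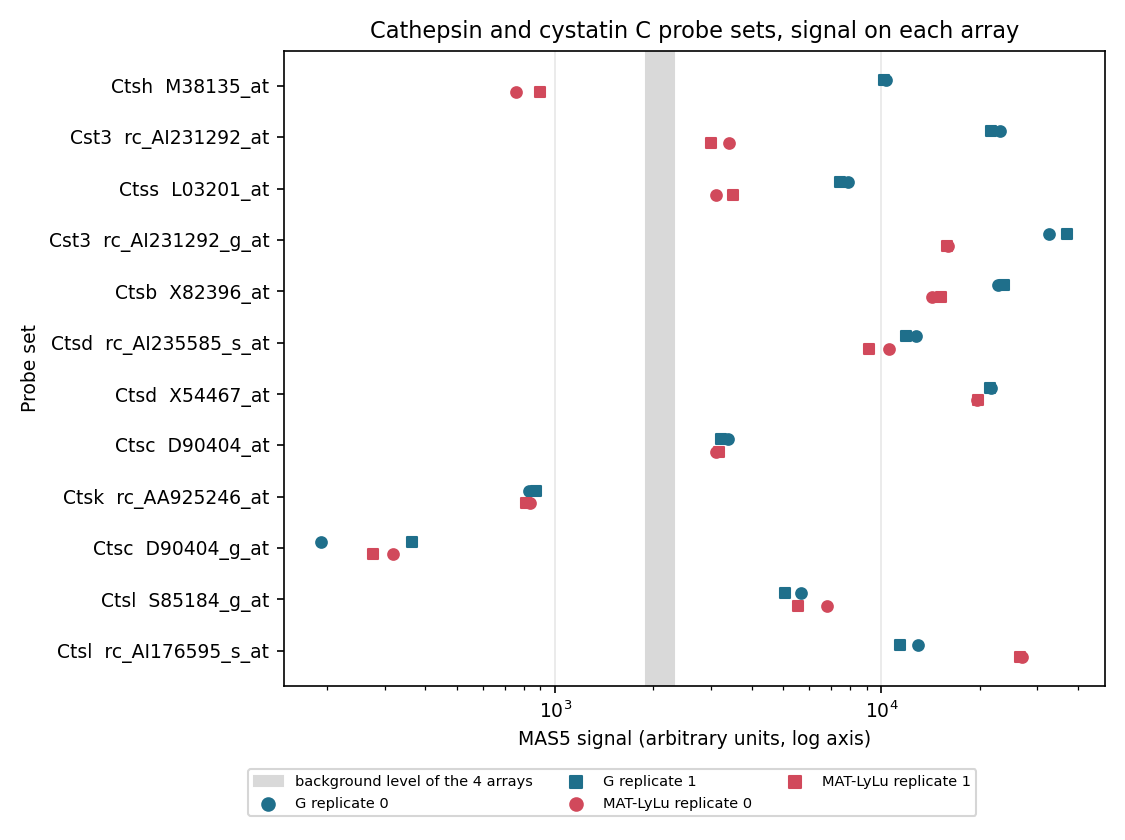
Signal of each of the 12 member probe sets (rows) on each of the 4 arrays, on a log axis, with the range of the 4 background levels in grey; rows run from the most negative log2 difference at the top to the most positive at the bottom. The MAT-LyLu arrays of Ctsh lie left of the background band and its G arrays right of it, while Ctsk and the second probe set of Ctsc lie left of it in both lines.

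Ctsh is an aminopeptidase of the papain family that trims proteins from their amino end. Its probe set read 10331 and 10177 on the G arrays, and 759.6 and 895.0 on the MAT-LyLu arrays. Both G arrays were high and both MAT-LyLu arrays low, with no overlap. The log2 difference (MAT-LyLu minus G, on the scale log2(signal + 16) used for every difference and fold here) was -3.61, with a standard error (SE) of 0.10 from the limma fit. As both MAT-LyLu arrays were under the background level, the size has only a bound, and with the dim arrays raised to that level Ctsh was at least 4.88-fold lower. The arrays read total RNA of whole samples of cells, so fewer cells with Ctsh transcripts and fewer transcripts per cell cannot be told apart, for Ctsh or any gene below.

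Cst3 was low in MAT-LyLu on both of its probe sets, which carry the same accession. The first read 23029 and 21692 in G, and 3417 and 2995 in MAT-LyLu, a log2 difference of -2.80 (SE 0.10). The MAT-LyLu arrays stood above their background levels, so this difference was measured on both sides. The second, marked _g, read 32718 and 37177 in G against 16039 and 15840 in MAT-LyLu, a log2 difference of -1.13 (SE 0.11). The probe sets shared a direction and neither had overlapping lines, yet the fold was 6.96 on the first and 2.19 on the second. On G replicate 1, where the second probe set was higher than on G replicate 0 and the first was lower, the mean of 3 beta-actin control probe sets was 63041, against 44848 to 46372 on the other arrays. Without G replicate 1 the log2 difference of the second Cst3 probe set was -1.04, and without G replicate 0 it was -1.22.

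Ctss is a cysteine endopeptidase known for antigen processing, where it cleaves the invariant chain of class II molecules. Its signals were 7911 and 7489 in G, and 3105 and 3518 in MAT-LyLu. The lines did not overlap, and every array was above its background level. The log2 difference was -1.22 (SE 0.09), a fold of 2.32. In the RefSeq order of rat chromosome 2, Ctss and the collagen-degrading Ctsk lie close together with 1 annotated gene, LOC134485802, between them.

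Ctsk, the cathepsin for which osteoclasts are known, read 831.9 and 870.0 in G, and 838.5 and 815.2 in MAT-LyLu. The lines overlapped, and all 4 values were under the background level, so no difference could be measured. Ctsk did not pass the filter on low signals and has no fitted error. The neighbours thus had different readouts, with Ctss measured and lower in MAT-LyLu and Ctsk below background in both lines.

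Ctsb is a cysteine protease that cuts inside chains and also removes dipeptides from the carboxyl end. It read 22821 and 23800 in G, and 14303 and 15201 in MAT-LyLu. The lines did not overlap, and the gap between replicates was at most 0.09 on the log2 scale. The log2 difference was -0.66 (SE 0.09), or 1.58-fold lower, and it was -0.57 after quantile normalization.

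Ctsl is a strong endopeptidase of the same family, and its probe sets gave different sizes. The probe set marked _s, a mark for probes that can also match related transcripts, read 12972 and 11383 in G, and 26917 and 26521 in MAT-LyLu. Both MAT-LyLu arrays were high, and the log2 difference was 1.14 (SE 0.10), a fold of 2.20. The other, marked _g, read 5669 and 5050 in G, and 6829 and 5564 in MAT-LyLu. Here the lines overlapped, with a log2 difference of 0.20 (SE 0.12). Another probe set, S85184_at, whose identifier repeats the accession of the _g probe set, has no gene in the annotation and is no member: it read 5035, 4396, 4814 and 4379 over the same array order, and the lines overlapped. The higher Ctsl signal in MAT-LyLu was therefore seen on 1 of the 2 named probe sets.

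Ctsd, the aspartic cathepsin, is a general protease of the lysosome. Its first probe set read 21627 and 21543 in G, and 19565 and 19716 in MAT-LyLu, a log2 difference of -0.14 (SE 0.09). The second, marked _s, read 12734 and 11914 in G, and 10569 and 9158 in MAT-LyLu, a log2 difference of -0.32 (SE 0.10). The lines did not overlap on either, but the first difference was -0.09 after median scaling and -0.06 after quantile normalization. The scaling itself moved the median over all probe sets from -0.03 to 0.02 (median) and 0.03 (quantile). The second Ctsd difference was -0.28 after median scaling and -0.25 after quantile normalization.

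Ctsc, or dipeptidyl peptidase I, activates the serine proteases of leukocyte granules. Its first probe set read 3389 and 3232 in G, and 3105 and 3180 in MAT-LyLu, with a log2 difference of -0.07 (SE 0.08) that was smaller than its error. The second read 191.6 and 364.7 in G, and 318.5 and 275.7 in MAT-LyLu. These were all under the background level and did not pass the filter, so Ctsc rests on the first probe set.

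Of the 12 member probe sets, 10 passed the filter on low signals, which left out the second Ctsc probe set and Ctsk. The lines did not overlap for 9 of the 10, with 8 lower and 1 higher in MAT-LyLu, against 67.7% of all 6555 probe sets without overlap (39.2% lower and 28.6% higher). Limma called 34.1% of all probe sets (20.3% lower and 13.9% higher) at an adjusted p under 0.05. Because the members were chosen with these differences in view, nothing is read from their count. The median log2 difference was -0.49 over the 10 and -0.23 over all 12, beside -0.03 over all tested probe sets.

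**Figure D2:**
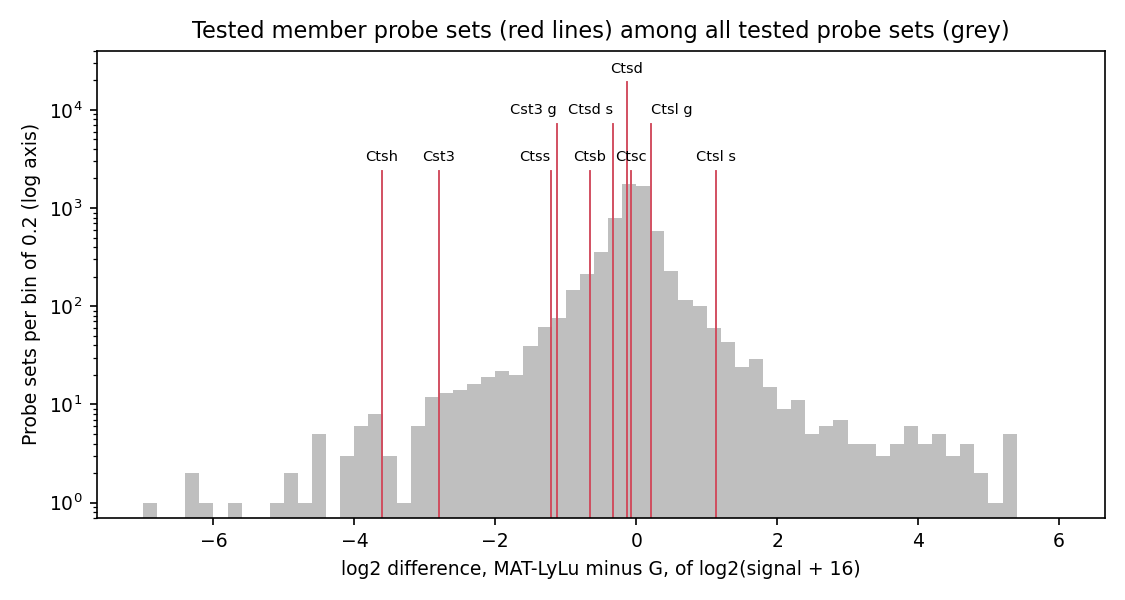
Log2 difference between the lines for all 6555 tested probe sets (grey, bins of 0.2, log axis for the number of probe sets) with the 10 tested member probe sets as red lines; s and g mark the probe sets with those suffixes. Ctsh at -3.61 and the first Cst3 probe set at -2.80 lie in the left tail, and Ctsd, Ctsc and the second Ctsl probe set lie near 0. Ctsh was under background on both MAT-LyLu arrays, so its place is not measured. With the dim arrays raised to background its difference was -2.29.

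Cstb, a cystatin of the cytosol, fell in MAT-LyLu beside the lower signals of the secreted Cst3. Of 27 listed inhibitor and cystatin-family genes, 10 were tested, of which 2 fell, 1 rose and 7 did not pass in limma at an adjusted p under 0.05, against 35.3% called of all 3866 tested genes (20.6% lower and 14.7% higher). Cstb, or stefin B, which inhibits papain-like cathepsins, fell 3.22-fold from 28910 ± 1137 to 8992 ± 829 (SD, 2 arrays each; adjusted p = 1.5e-06 in limma). Its other probe set was lower too, with a log2 difference of -1.92. The protease-trapping macroglobulin gene A2m fell 2.60-fold (adjusted p = 1.5e-05 in limma), and 3 of its 5 tested probe sets passed. Cast, which encodes the calpain inhibitor calpastatin, rose 1.23-fold (adjusted p = 0.024 in limma), a call lost without G replicate 0 (0.082), without MAT-LyLu replicate 0 (0.15), without MAT-LyLu replicate 1 (0.089) and with the mean of all its probe sets (0.15). The cystatin-related Cst8, known from the male reproductive tract, had a log2 difference of -0.10 (SE 0.08) and did not pass. Their median log2 difference was -0.04, beside -0.02 for all tested genes.

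Among other peptidases, Casp1, Cpd and Anpep fell and Capn2 rose, and no further cathepsin passed. Of 35 listed, 12 were tested, of which 3 fell (25%), 1 rose (8.33%) and 8 did not pass, near the 20.6% lower and 14.7% higher over all tested genes. The members that moved are not cathepsins of the lysosome. Casp1, the inflammatory caspase, fell at least 5.46-fold. Cpd, a carboxypeptidase of the trans-Golgi network, fell 3.27-fold from 13853 ± 119 to 4247 ± 630. Anpep, a surface aminopeptidase, fell 1.31-fold on its brightest probe set, a call lost without MAT-LyLu replicate 1 (adjusted p = 0.053 in limma). Its other probe sets fell further, one 1.86-fold (adjusted p = 0.00052 in limma over probe sets) and one at least 2.66-fold (3.0e-06), and the mean of all 3 gave a log2 difference of -0.98 (5.5e-06) in place of -0.39. Capn2, the large subunit of m-calpain, rose 2.35-fold from 3986 ± 604 to 9325 ± 515. Of the cathepsins in this list, the placental Ctsj was under background on all 4 arrays and did not pass (log2 difference 0.17, SE 0.09), and Ctse, an aspartic cathepsin, was under background and left out by the filter. Their median log2 difference was -0.03, beside -0.02 for all tested genes.

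Among other genes of the lysosome, more fell than rose. Of 81 listed membrane, hydrolase, proton pump and sorting genes, 28 were tested, and 15 fell, 4 rose and 9 did not pass, with 7 of the falls at 2-fold or more. The falls made 53.6% of the 28 tested genes and the rises 14.3%, beside 20.6% lower and 14.7% higher over all tested genes. Over all tested genes, too, falls outnumbered rises without further scaling. Of the calls over all probe sets, 59.4% were lower, but 52.4% after median scaling and 50.8% after quantile normalization. As the list was chosen with earlier results of these data known, nothing is read from its excess of falls. The median log2 difference was -0.35, beside -0.02 for all tested genes. Asah1, the acid ceramidase, fell at least 5.99-fold, and Gaa, the acid alpha-glucosidase, fell from 22560 ± 2144 to 5616 ± 391. Psap, the precursor of the saposins that help lipid hydrolases, fell 2.75-fold, and Atp6ap1 and Atp6v1b2, of the proton pump that acidifies the lysosome, fell 2.67-fold and 1.84-fold, Atp6v1b2 with 1 MAT-LyLu array below background. Lamp1, a membrane glycoprotein of the lysosome, fell 5.86-fold on its brightest probe set, while the log2 difference was -0.97 with the mean of its probe sets in place of -2.55. Adjusted p-values of these 6 genes in limma ran from 4.8e-08 to 4.1e-05. Of the other tested pump genes, named after their values were seen, Atp6v1c1 and Atp6v0c fell. Atp6v1a, Atp6v1d, Atp6v1f and Atp6v0a1 did not pass. The 4 that rose were Man2b1, Gm2a, Fuca1 and Igf2r, at 1.23-fold to 1.52-fold. Without MAT-LyLu replicate 0 the calls of Fuca1 and Igf2r were lost. The call of Igf2r was also lost without G replicate 1 and without MAT-LyLu replicate 1. Cd63, another membrane protein of late endosomes and lysosomes, did not pass, at 42905 ± 5791 and 41803 ± 260; Cd63 and the 4 genes that rose were named after their values were seen.

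**Figure D3:**
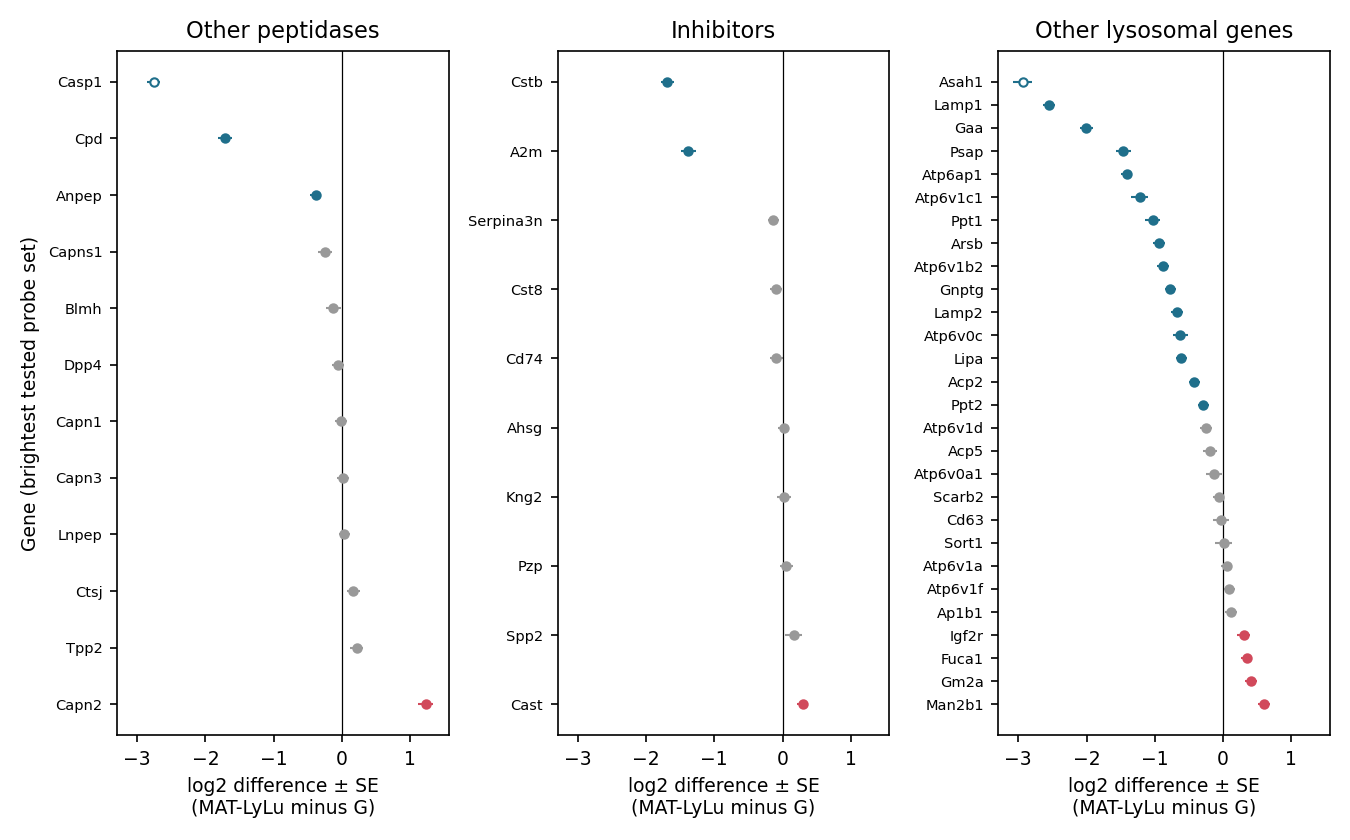
Log2 difference (MAT-LyLu minus G, point) with the SE of the limma fit (bar) for the tested genes of 3 lists without members. Each gene stands on its brightest tested probe set. Blue genes fell, red genes rose and grey genes did not pass at an adjusted p under 0.05. Open circles mark genes under background on both MAT-LyLu arrays but not on both G arrays. Pzp, Ctsj and Sort1 were under background on all 4 arrays and have filled circles. The right panel has 15 blue and 4 red genes of 28, and the inhibitor panel shows Cstb at -1.69 as its lowest value.

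Cathepsins such as Ctss, Ctsh and Ctsc are known from macrophages, so markers of other cell types were read on the same arrays. Of 11 leukocyte markers with a probe set, 8 were tested and none passed in limma in either direction, nor did any at an unadjusted p under 0.05 (the smallest, of Cd14, was 0.053). Their summed signal was 34235 and 33769 in G, and 33904 and 36032 in MAT-LyLu, so the totals overlapped between the lines. Such a sum is weighted to the brightest probe sets. Single markers without overlap went both ways, such as Cd14 and Csf1r higher and Cd4 lower in MAT-LyLu. Of the 11, 7 were above background on all 4 arrays: Aif1, the brightest (means of 8938 in G and 9456 in MAT-LyLu), Csf1r (5179 and 5731), Ptprc (3420 and 3376), Cd4 (3493 and 3167), C1qb (3326 and 3626), Cd74 (3099 and 2908) and Cd14 (2296 and 2628). The other 4 (Itgam, Lyz2, Fcgr2b and Cd53) were under background on all 4 arrays. The osteoclast markers Acp5 and Calcr lay at or under background in both lines. All 4 endothelial markers with a probe set failed to pass or were left out by the filter.

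Markers of fibroblasts were lower in MAT-LyLu, as were 20.6% of all tested genes in limma. All 8 markers with a probe set (Col1a1, Col1a2, Col3a1, Lum, Dcn, Thy1, Pdgfra and Pdgfrb) fell. Their summed signal, again weighted to the brightest, was 150754 and 152814 in G, and 12470 and 12282 in MAT-LyLu. The sizes differed, as Pdgfrb was 1.23-fold and Lum at least 14.6-fold lower. Of the 8 markers, 5 were under background on both MAT-LyLu arrays. The part of these markers in the values of Ctsh, Cst3 and Ctss was not tested. Of 10 prostate epithelium markers with a probe set, Krt8 rose, 5 (Krt14, Krt19, Epcam, Pbsn and Svs4) were under background on all 4 arrays, and Krt18 was near background in both lines. Krt5 and Spink1 were above background on all 4 arrays, so few of the markers of the labelled tissue were detected.

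**Figure D4:**
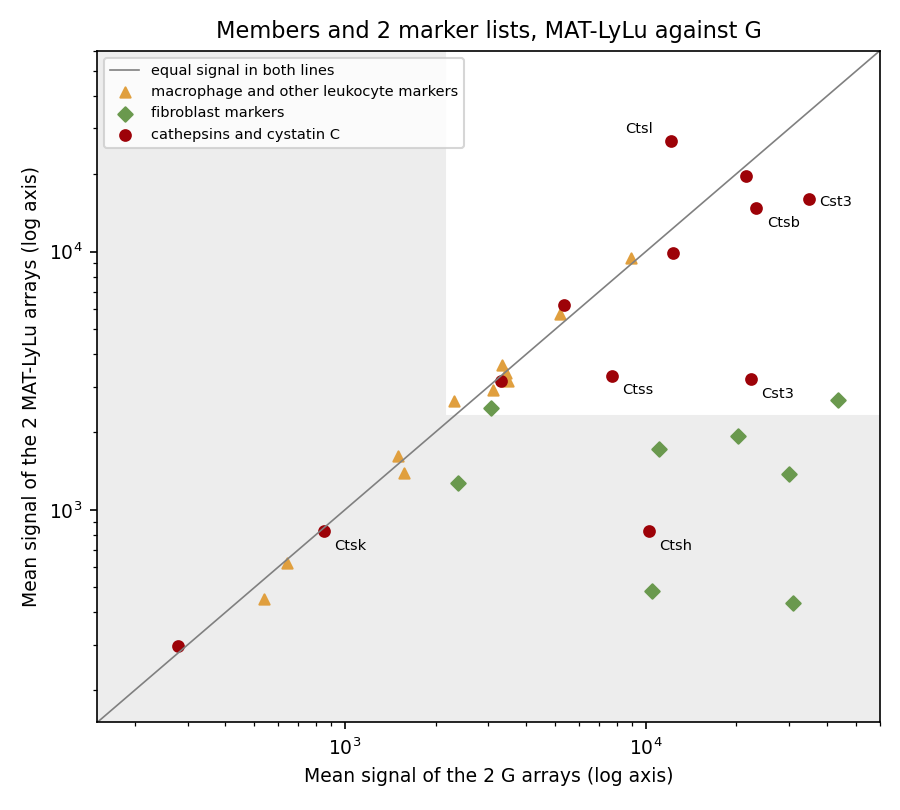
Mean signal of the 2 MAT-LyLu arrays against that of the 2 G arrays, both on log axes, for the 12 member probe sets (circles), the 11 leukocyte markers (triangles) and the 8 fibroblast markers (diamonds); the line marks equal signal, and grey marks signals under the highest background level of a line. Leukocyte markers lie along the line. Ctsh, Cst3 and Ctss lie below it, and so do the fibroblast markers.

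The genes nearest to the members in their pattern over the 4 arrays were found by Euclidean distance between mean-centred log2 values, with n = 4 arrays from 2 lines. For Ctsh these were Eln, the elastin gene (distance 0.07), Ass1, of arginine synthesis (0.11), and Uchl1, a deubiquitinase (0.13). Eln read 24285 and 23182 in G, and 1750 and 1978 in MAT-LyLu. Ctsh and all 3 of these genes were under background on both MAT-LyLu arrays, so each difference is only a bound, and these distances and their order rest in part on values under background. For Ctsl, by its brighter probe set, they were Lbr, the lamin B receptor (0.05), the tropomyosin Tpm3 (0.05) and the desaturase Scd2 (0.06). With 2 lines, any gene of like difference and like replicate gap comes out near, and the distance says no more than that.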

How the data were processed

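Total RNA of each line was labelled as biotinylated cRNA and hybridised to Affymetrix arrays. The authors deposited linear signal intensities made with MAS5, per the submitters' processing notes; version, scaling target and filters: not given in the sources used here. Probe sets were named from the platform annotation, with symbols updated through the RefSeq table of GRCr8 (6994 of 7018 with 1 symbol matched). Trimmed means of the arrays differed by at most 7.83%, so no further scaling was applied. Control probe sets and the 25% with the lowest mean signal were left out, log2(signal + 16) was fitted with limma 3.58.1 in R 4.3.3 (lmFit, eBayes with an intensity trend, 2-sided), and p-values were adjusted by Benjamini-Hochberg over all 6555 probe sets or 3866 genes, a gene standing on its brightest tested probe set. The fit was tested on simulated data. A probe set under background on both arrays of 1 line has a fold given as a bound. Named list genes were up to 6 per list with the smallest p past the threshold, plus cathepsins and cystatins; the 3 nearest genes were taken for the members with the largest rise and fall. The members and lists were chosen with earlier results of these data known.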

Additional observations from a re-analysis of the deposited data

How the results depend on the processing

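Differences of the 10 tested member probe sets were recomputed under 13 alternatives: pseudocounts of 1 and 64, no filter, a filter on the lower 50%, median or quantile scaling, no intensity trend, the replicate block, a floor at background and each array left out. No difference changed sign. By construction, the changes of filter, the missing intensity trend and the replicate block leave each difference as it was, so they could not change a sign. The fitted difference of Ctsh ran from -3.73 to -2.29, the latter with the floor, by construction of that alternative; the first Cst3 probe set ran from -2.89 to -2.70, Ctss from -1.31 to -1.13, and the brighter Ctsl probe set from 1.04 to 1.23. Ctsb moved to -0.57 with quantile normalization, and the first Ctsd probe set to -0.06 with quantile and -0.09 with median scaling. Scaling also changed the split of calls across the array. Limma called 1143 probe sets higher and 1180 lower after quantile normalization, and 1080 higher and 1191 lower after median scaling. Over all probe sets, limma called 908 higher and 1330 lower, and leaving out 1 array gave 702 to 1024 higher and 986 to 1332 lower. In the peptidase list 2 genes rose in place of 1 with no filter (Cpe added), quantile or median scaling (Tpp2 added), and 1 to 2 when 1 array was left out, with 2 to 4 falls. In the inhibitor list 0 genes rose when all probe sets of a gene were averaged, also at an unadjusted p under 0.05 in limma. Cast, the 1 gene that rose with all 4 arrays, had log2 differences from 0.25 to 0.34 when 1 array was left out. Among lysosomal genes 2 to 4 rose and 13 to 15 fell with 1 array left out. The labels share the replicate numbers 0 and 1 without stating a pairing. Over 6555 probe sets, the gaps between replicates 0 and 1 correlated at r = 0.16 between the lines. With the replicate block, 967 probe sets were higher and 1421 lower, the peptidase list had 1 rise and 3 falls, the inhibitor list 1 and 2, and the lysosomal list 4 and 16. The deposited signals hold no depth or probe-level spread, and what limits the dim probe sets of Ctsk and Ctsc is the background level.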
